A study of Homo sapiens with 3 samples.

Results

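Glycolysis splits glucose to pyruvate in the cytosol, and cells short of oxygen, like many carcinomas with oxygen to spare, turn the pyruvate to lactate and export it. The 39 genes described here cover that route from the glucose carriers to the lactate carrier, the storage of glucose as glycogen, and the hypoxia-inducible factors (HIFs) with their hydroxylases and targets. In the presence of oxygen the hydroxylases mark the HIF alpha subunits for destruction, and in hypoxia the subunits persist and raise the transcription of most glycolytic genes. The genes were taken by symbol with no filter on their values, from a list set with earlier results of these data known. A total of 38 of the 39 had a probe on the array, out of 17556 named genes, and they were read by 48 probes, 28 genes by 1 probe and 10 genes by 2. Pyruvate kinase, printed under its older symbol, is called PKM here, and the phosphoglycerate mutase PGAM1 was not analysed because no probe used here carried its symbol.

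The cells were HSC-3, an established human line from a squamous carcinoma of the tongue, whose transcripts were read on 1-colour oligonucleotide arrays with 1 array for each of 3 groups. The DKK3 group had received a plasmid for the full-length secreted glycoprotein DKK3 carrying an HA tag, the GFP group a plasmid for green fluorescent protein, and the untransfected group none. All were HSC-3 cells in DMEM with 10% serum, with no hypoxia named in the labels, and RNA was prepared 24 hours after the plasmids were given. The labels name neither the promoter of the plasmids nor the share of cells that took them up, and in RNA of a whole culture fewer cells with a transcript and less transcript per cell cannot be told apart. One treatment label speaks of C2C12, a mouse line, for the transfected cultures, while the titles, descriptions and sources name the human tongue line. DKK3 itself read 64328 units of spot intensity on the DKK3 array, 749 on the GFP array and 539 in untransfected cells. With 1 array in each group there were no replicates, no test and no p-value, and every difference describes these 3 RNA samples.

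Spots above the mean plus 2 SD of the blank spots were counted as detected, which put the limit at an intensity of 36.6 on the DKK3 array, 33.8 on the GFP array and 40.8 for untransfected cells. Squamous epithelial markers were detected on all 3 arrays for 14 of the 14 genes with a probe, keratin KRT5 among them at 12229, 16709 and 16548 units on the DKK3, GFP and untransfected arrays. Of the markers of other cells, 2 of 6 fibroblast, 2 of 4 endothelial, 4 of 5 leukocyte and 4 of 5 skeletal muscle genes with a probe were detected on all 3 arrays. The collagen gene COL1A1 and the leukocyte gene PTPRC lay below the limit on all of them, and the muscle factor MYOD1 passed it on the untransfected array alone, at 41.8 units. Others of these lists read well above it. The leukocyte gene CD68 read 324, 350 and 277 units on the DKK3, GFP and untransfected arrays. In the same order the muscle gene DES read 91.1, 106 and 102 units. For the fibroblast gene DCN, 1 of 2 probes was detected, at 151, 170 and 168 units. The summed intensity of the muscle list was 282 units on the DKK3 array, 281 on the GFP array and 321 in untransfected cells, and that of the fibroblast list was 406, 402 and 462 units in the same order. No background was taken off these sums, and blank spots alone averaged 32.1, 28.1 and 36.3 units on those arrays.

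All 48 member probes were detected on all 3 arrays. The spots closest to the limit were the second probes of BNIP3L and PFKFB3, at 1.14 and 1.17 times the limit of the DKK3 array. The spots for the lactate dehydrogenase LDHA, the glyceraldehyde-3-phosphate dehydrogenase GAPDH and the enolase ENO1 were among the bright spots of the array, with 22768, 19512 and 18437 units on the DKK3 array. These bright spots read higher on the GFP array throughout, with 27693 units for LDHA, 25503 for GAPDH and 23577 for ENO1. Quantile normalization, which gives the 3 arrays the same distribution of intensities, brought their DKK3 minus GFP differences to 0.027, -0.062 and -0.0037 on the log2 scale. All differences below are of such normalized log2 intensities.

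**Figure D1:**
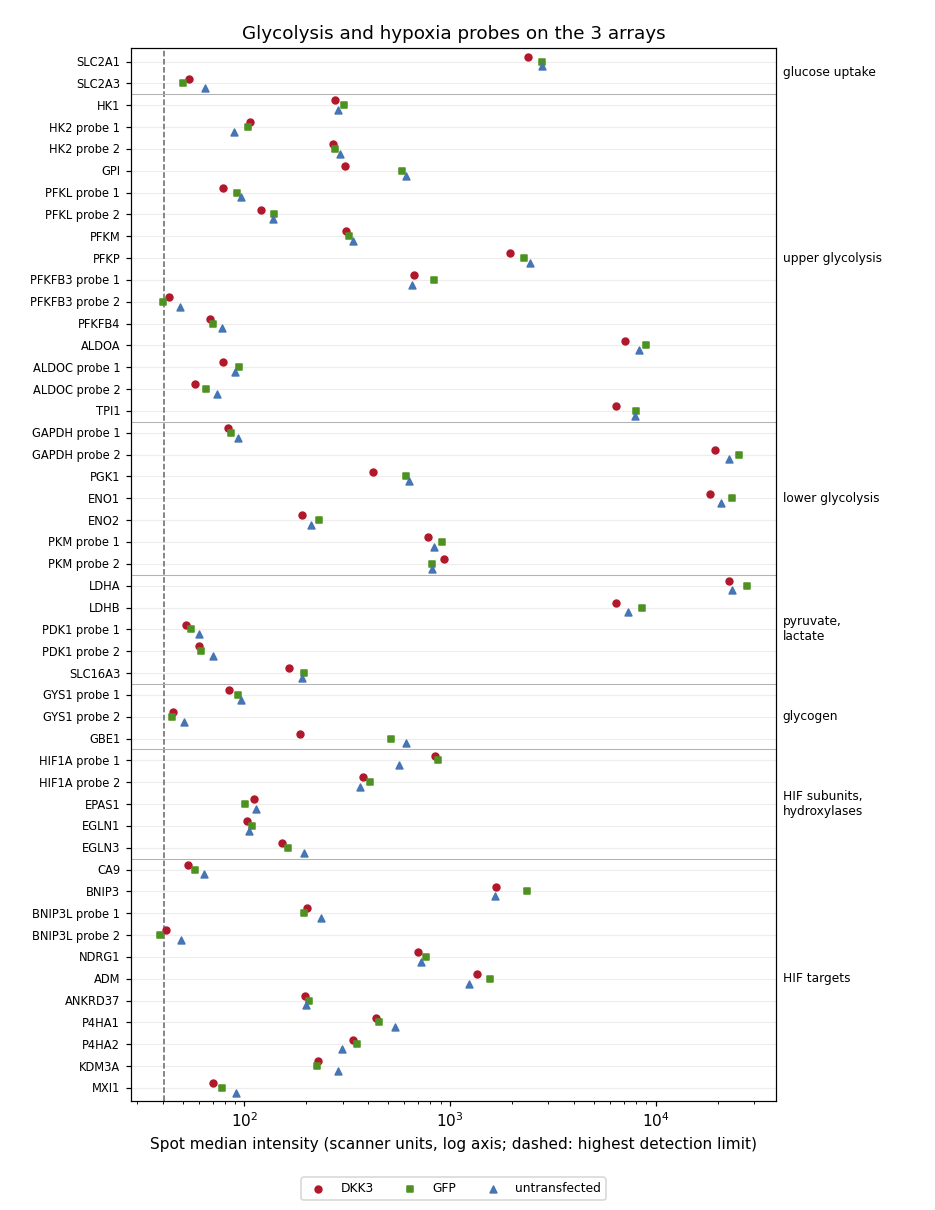
Spot median intensity (scanner units, log axis) of each of the 48 member probes, grouped by role, with a circle for the DKK3 array, a square for the GFP array and a triangle for the untransfected array. The dashed line is the highest of the 3 detection limits, 40.8 units. The 3 marks of a row lie close together except for GBE1 and GPI, whose DKK3 marks stand apart at 187 and 307 units, and for PGK1, HIF1A probe 1 and BNIP3.

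As a set, the glycolysis and hypoxia genes lay around 0 between DKK3 and GFP cells. Of the 38 genes, 18 were higher on the DKK3 array, against 50.2% of all 13376 detected genes, and their median difference was -0.0081, against 0.00034 for all genes. Only the glycogen branching enzyme GBE1 was 2-fold lower on the DKK3 array and no member was 2-fold higher. Of all 17579 detected probes 0.256% were 2-fold apart in either direction, 0.137% lower and 0.119% higher. A total of 20 of 38 members, against 8542 of 13376 detected genes, lay within 1 robust SD of 0. That SD, of the differences of all genes, was 0.0857 log2 units. With the arrays scaled to the same median in place of quantile normalization, 9 of 38 members were higher with DKK3, against 43.6% of all genes, and the members' median was -0.083, while cyclic loess gave 19 of 38 and a median of -0.0011.

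Against untransfected cells the picture was much the same. With DKK3, 16 of 38 members were higher (47.1% of all genes), the median was -0.029, and GBE1 was again the 1 member 2-fold lower, against 0.0717% of all probes 2-fold lower and 0.292% 2-fold apart in either direction. With GFP, 20 of 38 were higher (47.3% of all genes), the median was 0.024 and no member was 2-fold apart, against 0.254% of all probes. The comparisons share arrays, so their values are not independent of one another.

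**Figure D2:**
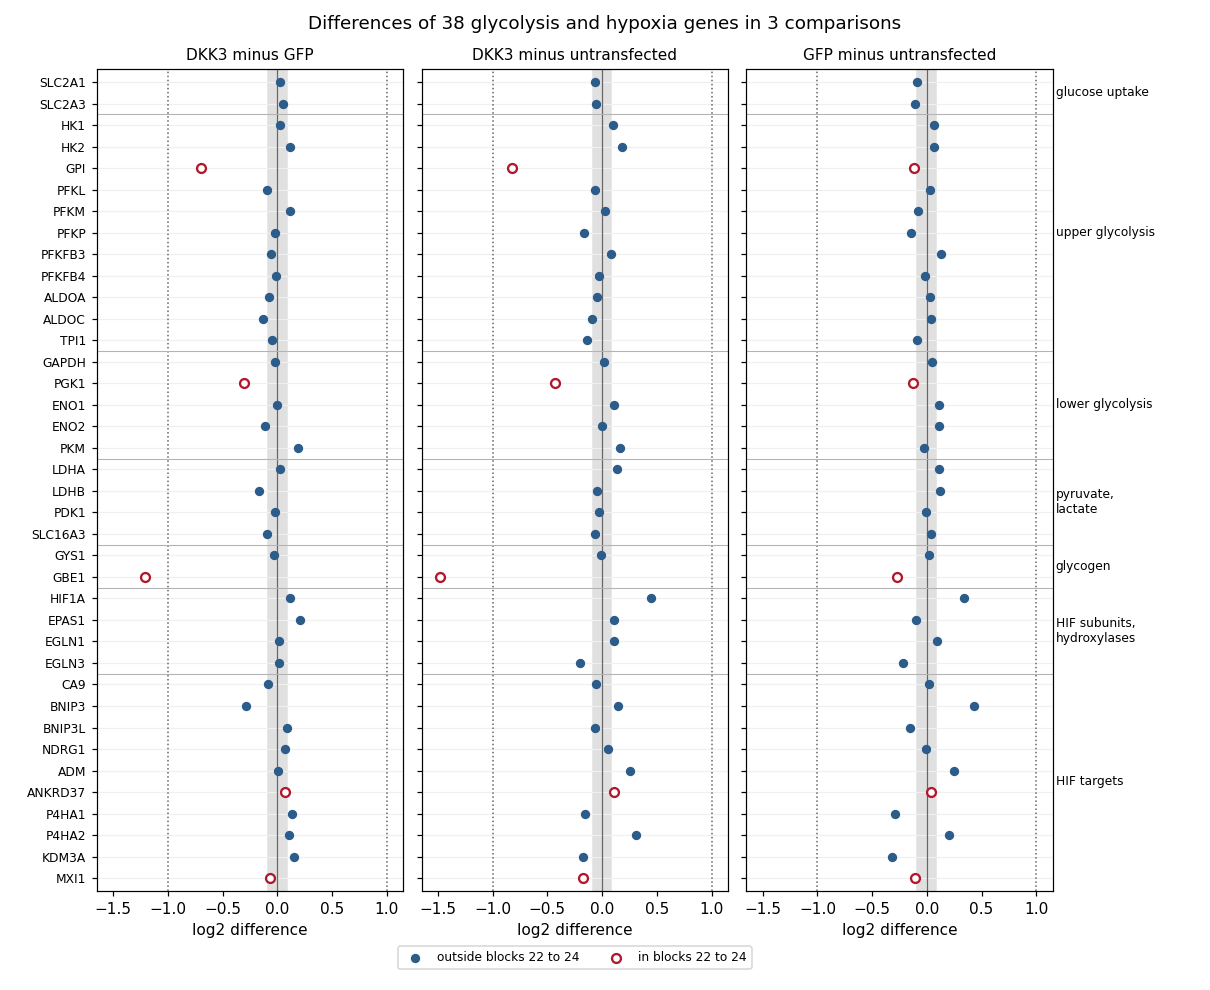
Log2 difference of each of the 38 genes in the 3 comparisons, probes of a gene averaged. The grey band is 1 robust SD of all detected genes around 0, dotted lines mark 2-fold, and open circles are the 5 genes printed in blocks 22 to 24 of the array. GBE1, GPI and PGK1 lie at -1.21, -0.70 and -0.31 in DKK3 minus GFP and further left in DKK3 minus untransfected. HIF1A and BNIP3 lie furthest right in GFP minus untransfected.

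The place of a spot on the array moved with the differences. The spots lie in 24 blocks, and on the DKK3 array the last 3 of them read low. Among spots of at least 200 units on average, the median DKK3 minus GFP difference was -0.15 in blocks 22 to 24 and 0.018 in the other blocks, and DKK3 minus untransfected was -0.20 and 0.0081. Of the member genes, GBE1 and ANKRD37 lie in block 22 and GPI, PGK1 and MXI1 in block 23, each with a single probe. The 3 members furthest below 0 with DKK3 are thus all among these 5. The 33 members outside these blocks had a median of 0.0065 in DKK3 minus GFP and ran from -0.28 to 0.20, and in DKK3 minus untransfected their median was -0.0084. None of their probes was 2-fold lower in the 3 comparisons, against 0.104%, 0.00631% and 0.0127% of all detected probes outside these blocks in DKK3 minus GFP, DKK3 minus untransfected and GFP minus untransfected.

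A second pattern ran through GFP minus untransfected. The median of bright spots was 0.21 in block 1, 0.17 in block 2 and 0.15 in block 3, and it passed through 0.000255 in block 10 to -0.12 in block 14. Later blocks showed no steady fall, with 0.020 in block 20, -0.12 in block 23 and -0.017 in block 24. The member probes also differed between early and later blocks. All 19 of the probes in blocks 1 to 9 were higher on the GFP array, and 6 of the 29 probes in blocks 10 to 24 were. Over all detected probes the shares were 67.7% and 36.6%, and over the bright ones 77.7% and 31.5%. The split at block 9 was made after seeing these values, and the part of array position in any single difference was not tested beyond the values given beside it. In DKK3 minus GFP, by contrast, 6 of 19 member probes of blocks 1 to 9 and 18 of 29 of blocks 10 to 24 were higher with DKK3, against 40.2% and 54.3% of all probes.

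**Figure D3:**
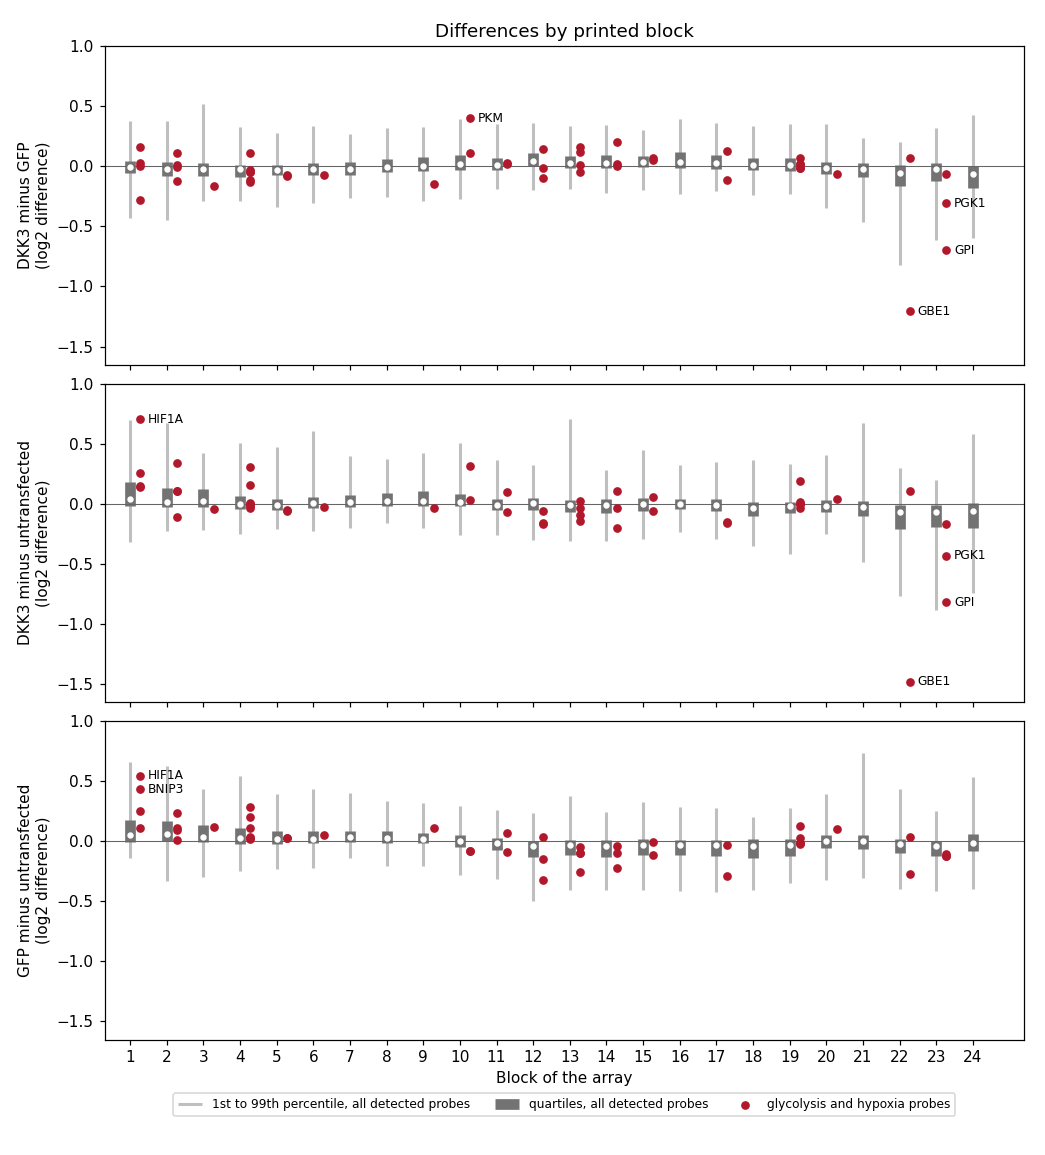
Log2 differences by printed block for the 3 comparisons, one panel each. Thin grey lines span the 1st to the 99th percentile of all detected probes in a block, thick bars the quartiles, white dots the medians, and red points are the 48 member probes, drawn beside their block. The lower quartiles drop in blocks 22 to 24 in the panels with DKK3, where GBE1, GPI and PGK1 lie, and block 1, with HIF1A and BNIP3, sits above 0 in the panels against untransfected cells.

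Glucose enters the cell through the carriers SLC2A1 and SLC2A3. SLC2A1, the ubiquitous GLUT1, read 2402 units on the DKK3 array, 2806 on the GFP array and 2790 in untransfected cells, and differed by 0.022 from GFP and by -0.065 from untransfected cells. SLC2A3, the high-affinity GLUT3, was dim, with 53.6, 50.4 and 63.9 units, and differed by 0.056 and -0.056. Both were slightly below untransfected cells with GFP, at -0.087 and -0.11, and no difference of either carrier exceeded 0.12.

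Within upper glycolysis, from hexokinase to triose phosphate isomerase, 3 of 11 genes were higher with DKK3 than with GFP (50.2% of all genes). The median of the 11 was -0.046. With median scaling 2 of 11 were higher (43.6% of all genes), and the median was -0.14. GPI, the isomerase that turns glucose-6-phosphate to fructose-6-phosphate, stood lowest, with 307 units on the DKK3 array, 585 on the GFP array and 612 in untransfected cells. Its single spot was 1.62-fold lower with DKK3 than with GFP (-0.70) and 1.77-fold lower than in untransfected cells (-0.82), while the GFP and untransfected arrays differed by -0.12. Of all detected probes, 0.455% differed by as much between DKK3 and GFP. The spot is in the first row of block 23. Bright spots of that row had medians of -0.19 against GFP and -0.40 against untransfected cells. Of the other detected spots of the row, 4 of 69 were lower still against GFP and 8 of 73 against untransfected cells. The 9 detected spots within 5 columns all lay below 0 against GFP, from -0.72 to -0.052 with a median of -0.20. With the median of the surrounding spots subtracted (within 10 columns and 1 row of the same block), GPI stood at -0.57 against GFP and -0.59 against untransfected cells.

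The other upper enzymes lay within 0.15 of 0 between DKK3 and GFP. The housekeeping hexokinase HK1 stood at 0.028 between DKK3 and GFP, the platelet phosphofructokinase PFKP at -0.018, the muscle form PFKM at 0.11, the fructose-bisphosphate aldolase ALDOA at -0.075 and the triose phosphate isomerase TPI1 at -0.046. The phosphofructokinase PFKL stood at -0.12 and -0.076 on its 2 probes. ALDOC, the brain aldolase, read 78.5, 94.2 and 90.1 units on the DKK3, GFP and untransfected arrays with 1 probe and 57.4, 65.1 and 73.8 units with the other, and both were lower with DKK3 than with GFP, at -0.15 and -0.11. PFKFB4, which makes and degrades the phosphofructokinase activator fructose-2,6-bisphosphate, differed by -0.013.

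HK2, the inducible hexokinase of many tumours, was higher with DKK3 than with GFP on both of its probes, by 0.11 and 0.12. Its probe in block 2 read 106 units on the DKK3 array, 104 on the GFP array and 89.2 in untransfected cells, and its probe in block 13 read 268, 276 and 291 units. Against untransfected cells the probes parted, with 0.34 and 0.023 for DKK3 and 0.23 and -0.097 for GFP. With the surrounding spots subtracted they remained apart, at 0.29 and 0.015 for DKK3 and 0.16 and -0.010 for GFP.

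PFKFB3, the relative of PFKFB4 with the stronger kinase activity, read 669 units on the DKK3 array, 838 on the GFP array and 649 in untransfected cells with its brighter probe, in block 4. It was highest on the GFP array, by 0.28 over untransfected cells, and DKK3 minus GFP was -0.13, and with the surrounding spots subtracted these were 0.15 and -0.043. Its second probe was dim, with 42.9, 40.0 and 48.8 units, and stayed within 0.02 of 0 in all 3 comparisons. PFKP, in block 12, read 1959 units on the DKK3 array, 2288 on the GFP array and 2434 in untransfected cells, and GFP minus untransfected was -0.14, or -0.047 after the surrounding spots were subtracted.

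In lower glycolysis, which returns the ATP invested above, 1 of 5 genes was higher with DKK3 than with GFP (50.2% of all genes). The median was -0.022. With median scaling 1 of 5 was higher (43.6% of all genes), and the median was -0.20. PGK1, the phosphoglycerate kinase that makes the first ATP of the pathway, read 422 units on the DKK3 array, 607 on the GFP array and 632 in untransfected cells. It differed by -0.31 from GFP and by -0.43 from untransfected cells, and by -0.12 between the GFP and untransfected arrays. Its spot lies near the end of a row of block 23. The median of that row was -0.0055 in DKK3 minus GFP and that of the 7 detected spots within 5 columns was -0.22, and with the surrounding spots subtracted PGK1 stood at -0.18.

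PKM, which makes pyruvate and the second ATP, was the 1 higher gene, and its probes disagreed. The probe in block 10 read 939 units on the DKK3 array, 818 on the GFP array and 816 in untransfected cells, a difference of 0.40 from GFP and 0.32 from untransfected cells. The probe in block 4 read 779, 909 and 837 units, with differences of -0.029 and 0.0038. Beside the first of these, 2 of 79 other detected spots of its row were higher, and its value after subtraction of the surrounding spots was 0.30 against GFP. Which transcripts each probe reads was not examined.

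In the main setting the remaining lower enzymes lay between -0.11 and 0.019 against GFP. GAPDH differed by -0.062 between DKK3 and GFP on its bright probe and by 0.019 on a dim one. The ubiquitous enolase ENO1 stood at -0.0037, and the neuronal enolase ENO2 at -0.11 with 190 units on the DKK3 array, 231 on the GFP array and 211 in untransfected cells. Both enolases were 0.11 higher with GFP than in untransfected cells, and they are printed in blocks 2 and 4, where bright spots had medians of 0.17 and 0.11.

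Pyruvate goes to lactate or to the mitochondrion. LDHA, which reduces pyruvate to lactate, differed by 0.027 between DKK3 and GFP, and LDHB, the isoform that favours the reverse reaction, by -0.16. LDHB read 6380 units on the DKK3 array, 8572 on the GFP array and 7329 in untransfected cells, and its differences from untransfected cells were -0.047 with DKK3 and 0.12 with GFP. LDHA was 0.14 and 0.11 above untransfected cells with DKK3 and GFP, from a spot in block 1, and with the surrounding spots subtracted it stood at -0.0038 and -0.024. PDK1, the HIF-induced kinase that closes the mitochondrial route, was dim, with 52.2, 54.8 and 60.2 units on 1 probe and 60.4, 61.2 and 70.5 on the other for the DKK3, GFP and untransfected arrays. All of its differences lay between -0.05 and 0.03. SLC16A3, the lactate exporter MCT4, stood at -0.097 against GFP and -0.062 against untransfected cells. Of the 4 genes of this role, 1 was higher with DKK3 than with GFP (50.2% of all genes), with a median of -0.060. With median scaling 0 of the 4 were higher (43.6% of all genes), and the median was -0.18.

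Glycogen synthesis gave the largest difference of the set. GBE1, which adds the branches of glycogen, read 187 units on the DKK3 array, 517 on the GFP array and 609 in untransfected cells. The DKK3 array was low and the other 2 lay close together. The normalized level was 2.31-fold lower with DKK3 than with GFP (-1.21) and 2.79-fold lower than in untransfected cells (-1.48), and GFP minus untransfected was -0.27. As many as 0.216% of all detected probes differed by that much between DKK3 and GFP. The spot is in the first row of block 22, and of 79 other detected spots of that row 1 was lower against GFP and none against untransfected cells. The row's median was -0.12 and that of the 9 detected spots within 5 columns was -0.29. With the surrounding spots subtracted GBE1 stood at -0.98 against GFP and -1.29 against untransfected cells, so that the difference from GFP ended just short of 2-fold. GBE1 has no second probe outside these blocks. GYS1, the muscle-type glycogen synthase, was level, at -0.051 and -0.014 on its 2 probes between DKK3 and GFP.

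**Figure D4:**
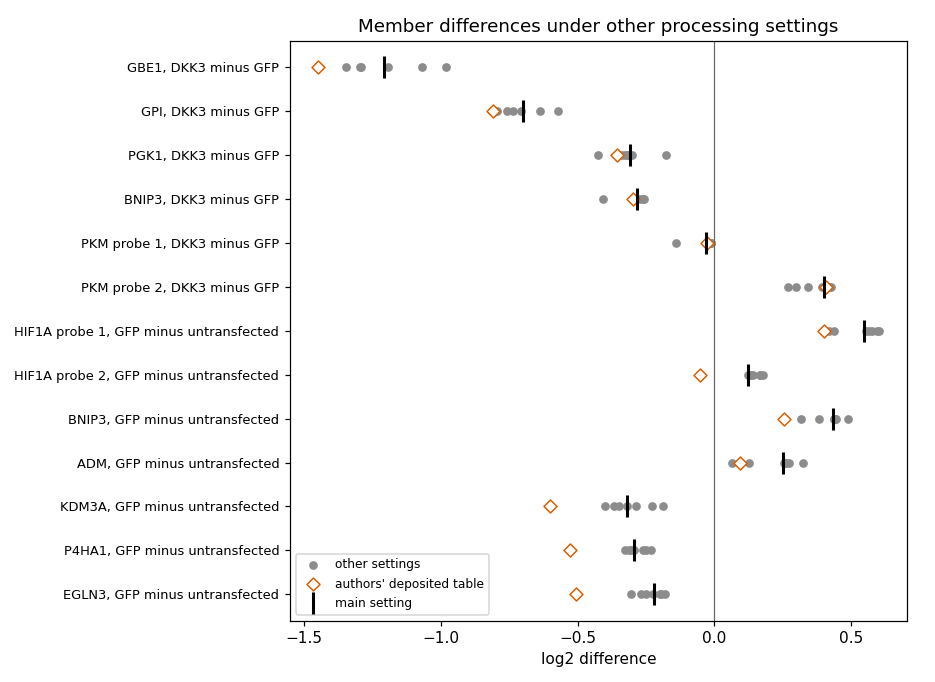
Log2 differences of selected member probes under the main setting (black bars) and under 8 other settings of background correction and normalization (grey points, with the authors' deposited table as open diamonds). The signs of GBE1, GPI, PGK1 and BNIP3 in DKK3 minus GFP were the same in all 8. The second HIF1A probe in GFP minus untransfected crossed 0 in the deposited table, which lies left of the main setting in every GFP minus untransfected row.

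The HIF subunits and hydroxylases differed by 0.013 to 0.20 between DKK3 and GFP, and their differences from untransfected cells ran from -0.20 to 0.45 with DKK3 and from -0.22 to 0.34 with GFP. HIF1A, the alpha subunit of HIF-1, read 848 units on the DKK3 array, 873 on the GFP array and 563 in untransfected cells with its probe in block 1. Both plasmids went with a higher reading than in untransfected cells, by 0.70 or 1.63-fold with DKK3 and by 0.55 or 1.46-fold with GFP, and they differed from each other by 0.16. Its probe in block 19 read 375 units on the DKK3 array, 409 on the GFP array and 363 in untransfected cells, with smaller differences of 0.19 and 0.12 in the same direction. Bright spots of the first row of block 1, where the first probe lies, had medians of 0.34 with DKK3 and 0.28 with GFP against untransfected cells. With the surrounding spots subtracted, GFP minus untransfected was 0.44 on the first probe and 0.18 on the second. In the row of the second probe, in a block whose bright spots had a median of -0.12, 1 of 78 other detected spots was higher in GFP minus untransfected. In the authors' deposited table, which places all genes lower, the second probe was at -0.053.

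EPAS1, the alpha subunit of HIF-2, was higher with DKK3 than with GFP by 0.20, the largest upward difference among the members with probes of a gene averaged, with 111 units on the DKK3 array, 100.4 on the GFP array and 114 in untransfected cells. On the normalized scale the untransfected array lay between them: DKK3 minus untransfected was 0.11, above 0 in 7 of the 8 settings, and GFP minus untransfected was -0.098. EGLN1, the main HIF prolyl hydroxylase, was level between the plasmids at 0.013. EGLN3, a hydroxylase that HIF itself induces, read 152 units on the DKK3 array, 163 on the GFP array and 195 in untransfected cells. It was 0.20 lower with DKK3 and 0.22 lower with GFP than in untransfected cells, and with the surrounding spots subtracted GFP minus untransfected was -0.20. All 4 genes of this role were above 0 in DKK3 minus GFP, with a median of 0.067, against 50.2% of all genes. With median scaling 1 of 4 was above 0, against 43.6% of all genes, and the median was -0.020.

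HIF binds the core motif ACGTG or GCGTG near its target genes. The 250 bases upstream of the start site, from RefSeq on GRCh38.p14, are shown for the carbonic anhydrase CA9, a classic HIF-1 target, and for the 2 HIF targets among the members that were highest and the 2 that were lowest in GFP minus untransfected, since these stood on opposite sides of 0 in cells whose HIF1A probes read higher. The windows are chr9:35673678-35673927 on the + strand for CA9, chr10:131981924-131982173 on the - strand for BNIP3, chr11:10304823-10305072 on the + strand for ADM, chr2:86441121-86441370 on the + strand for KDM3A and chr10:73096867-73097116 on the - strand for P4HA1. Each is printed 5′ to 3′ on the strand of its gene, with ACGTG and GCGTG and their reverse complements CACGT and CACGC in capitals.
CA9: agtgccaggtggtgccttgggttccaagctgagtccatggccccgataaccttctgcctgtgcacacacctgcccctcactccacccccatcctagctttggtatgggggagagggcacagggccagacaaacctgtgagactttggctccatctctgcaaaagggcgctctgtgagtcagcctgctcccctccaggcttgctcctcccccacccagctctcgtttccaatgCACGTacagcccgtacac
BNIP3: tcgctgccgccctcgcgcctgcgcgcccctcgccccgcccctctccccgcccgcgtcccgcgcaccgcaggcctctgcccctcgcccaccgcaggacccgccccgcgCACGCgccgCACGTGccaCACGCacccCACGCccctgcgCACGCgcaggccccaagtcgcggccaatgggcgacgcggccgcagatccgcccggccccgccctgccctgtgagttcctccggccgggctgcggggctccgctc
ADM: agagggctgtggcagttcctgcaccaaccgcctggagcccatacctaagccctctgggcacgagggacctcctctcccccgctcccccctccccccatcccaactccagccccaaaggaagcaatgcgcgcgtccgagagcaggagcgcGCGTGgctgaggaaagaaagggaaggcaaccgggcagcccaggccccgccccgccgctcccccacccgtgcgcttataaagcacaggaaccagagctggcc
KDM3A: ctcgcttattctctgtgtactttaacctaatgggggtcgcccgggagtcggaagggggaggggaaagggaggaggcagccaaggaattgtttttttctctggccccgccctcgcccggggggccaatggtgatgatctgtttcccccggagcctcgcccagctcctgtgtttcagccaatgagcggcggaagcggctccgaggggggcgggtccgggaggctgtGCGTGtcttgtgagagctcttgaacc
P4HA1: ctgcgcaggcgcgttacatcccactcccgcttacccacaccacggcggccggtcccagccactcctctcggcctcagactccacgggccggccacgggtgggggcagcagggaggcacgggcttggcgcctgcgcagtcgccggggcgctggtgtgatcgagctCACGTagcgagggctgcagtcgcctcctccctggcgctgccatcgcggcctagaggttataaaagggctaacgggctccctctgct
The BNIP3 window holds 6 matches, counting the palindrome CACGTG on both strands, and each of the others holds 1. A match of such a short motif is common: 43.1% of 27305 promoter windows of this length held at least 1, against 23 of the 35 members with a window (65.7%) and 6 of 8 HIF targets (75%). The targets with 1 match include both the higher ADM and the lower KDM3A and P4HA1. These lie in blocks 1, 12 and 17, where bright spots had medians of 0.21, -0.11 and -0.12 in GFP minus untransfected. With the surrounding spots subtracted ADM stood at 0.066, below P4HA2 at 0.18, whose window held 0 matches. KDM3A and P4HA1 stood at -0.19 and -0.23. The part of array position in this choice of genes was not tested. BNIP3L, NDRG1 and SLC2A3 were not matched in the promoter table.

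Of the 10 HIF targets, 7 were higher with DKK3 than with GFP, with a median of 0.069, against 50.2% of all genes. With either plasmid 5 were higher than in untransfected cells (47.1% of all genes with DKK3 and 47.3% with GFP). With median scaling 4 of the 10 were higher with DKK3 than with GFP, against 43.6% of all genes, and their median was -0.026. BNIP3, a mitochondrial protein that triggers the removal of mitochondria, read 1681 units on the DKK3 array, 2370 on the GFP array and 1655 in untransfected cells. It was high on the GFP array alone, with 0.43 over untransfected cells and a DKK3 minus GFP difference of -0.28, while DKK3 minus untransfected was 0.15. In GFP minus untransfected 1 of 62 other detected spots in its row of block 1 was higher, and with the surrounding spots subtracted the value was 0.32. BNIP3L, its relative with the same role, went the other way on its brighter probe, with 200.3 units on the DKK3 array, 196 on the GFP array and 237 in untransfected cells and a GFP minus untransfected difference of -0.26. Its second probe, near the detection limit, stood at -0.045.

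ADM, a vasodilator peptide, was higher after either plasmid. It read 1347 units on the DKK3 array, 1570 on the GFP array and 1231 in untransfected cells, with differences from untransfected cells of 0.26 and 0.25. Its spot shares the first row of block 1 with that of HIF1A, and with the surrounding spots subtracted the differences were 0.10 and 0.066. P4HA2, a collagen prolyl hydroxylase, was 0.31 higher with DKK3 and 0.20 higher with GFP than in untransfected cells, reading 337, 353 and 299 units on the DKK3, GFP and untransfected arrays, and with the surrounding spots subtracted these were 0.25 and 0.18.

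P4HA1, another alpha subunit of the same enzyme, differed in the opposite direction. It read 435 units on the DKK3 array, 452 on the GFP array and 539 in untransfected cells and was at -0.16 with DKK3 and -0.29 with GFP against untransfected cells. KDM3A, a histone H3 lysine 9 demethylase, read 227 units on the DKK3 array, 226 on the GFP array and 285 in untransfected cells, with -0.17 and -0.32. The untransfected array was the high one for both genes. They were higher with DKK3 than with GFP, by 0.13 and 0.15, and with the surrounding spots subtracted GFP minus untransfected was -0.23 for P4HA1 and -0.19 for KDM3A.

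Between DKK3 and GFP the remaining targets lay between -0.082 and 0.072. CA9, which is nearly silent in most cells until HIF is active, was dim, with 53.0 units on the DKK3 array, 57.7 on the GFP array and 63.2 in untransfected cells, 1.45, 1.71 and 1.55 times the detection limit. Its differences were -0.082 between DKK3 and GFP and -0.058 and 0.024 from untransfected cells with DKK3 and GFP. NDRG1, a stress-response gene of the N-myc downstream-regulated family, read 696, 760 and 718 units on the DKK3, GFP and untransfected arrays and differed by 0.065, and ANKRD37, an ankyrin repeat protein, read 197, 206 and 199 units and differed by 0.072 between DKK3 and GFP. The ANKRD37 spot lies in block 22, where the 8 detected spots within 5 columns of it had a median of 0.070 between DKK3 and GFP. MXI1, which antagonises MYC, read 70.5, 77.6 and 90.9 units on the DKK3, GFP and untransfected arrays, with -0.065 between DKK3 and GFP and -0.17 between DKK3 and untransfected cells. Its spot lies in block 23, and with the surrounding spots subtracted these differences were 0.049 and 0.024.

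Probes of 1 gene gave a rough scale for these differences. Over the 10 genes with 2 probes the median gap between the probes was 0.10 log2 units in the 3 comparisons. Both probes of PDK1, ALDOC and GYS1 were dim, and the offset of the background correction shrinks differences of dim spots. In 7 pairs of values from 4 genes, HK2, PFKFB3, PKM and HIF1A, the gap exceeded 0.3.

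Neighbouring pathways were read from further genes in the same way. None of their probes was 2-fold apart in any comparison, against 0.256%, 0.292% and 0.254% of all probes in DKK3 minus GFP, DKK3 minus untransfected and GFP minus untransfected. Of other isoforms of glycolysis and glycogen enzymes, 10 of 19 were higher with DKK3 than with GFP (50.2% of all genes), with a median of 0.0054. With median scaling 4 of 19 were (43.6% of all genes). Higher than in untransfected cells were 9 of 21 with DKK3 (47.1% of all genes) and 12 of 21 with GFP (47.3% of all genes). The red cell enzyme BPGM, which diverts glycolysis to 2,3-bisphosphoglycerate, was 0.39 above untransfected cells with DKK3 and 0.34 with GFP, at 230, 246 and 189 units on the DKK3, GFP and untransfected arrays, from block 3. Glycogenin GYG1, the primer of glycogen, was 0.36 higher with GFP than in untransfected cells on a probe of block 2 and 0.045 on one of block 13.

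Against untransfected cells, further genes of the oxygen-sensing machinery were higher in 10 of 14 cases with DKK3 (47.1% of all genes) and 5 with GFP (47.3%). Between DKK3 and GFP, 9 of the 14 were higher with DKK3 (50.2% of all genes), with a median of 0.049. VHL, which tags hydroxylated HIF for destruction, stood at 0.29, with 90.4 units on the DKK3 array, 72.9 on the GFP array and 80.8 in untransfected cells. CUL2, the scaffold of the same ubiquitin ligase, stood at 0.27 and 0.24 on its 2 probes. ELOB, its elongin partner, was level between DKK3 and GFP at -0.014 and 0.29 higher with GFP than in untransfected cells.

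Against untransfected cells, other HIF targets were higher for 19 of 28 genes with DKK3 (47.1% of all genes) and 17 with GFP (47.3%). Between DKK3 and GFP, 18 of the 28 were higher with DKK3 (50.2% of all genes), with a median of 0.053. The receptor gene MET led them at 0.62, with GFP minus untransfected at -0.34. MET read 336 units on the DKK3 array, 237 on the GFP array and 304 in untransfected cells. The collagen crosslinker LOX stood at 0.30, the collagen lysyl hydroxylase PLOD2 at 0.25, and the disulfide oxidase ERO1A at 0.21 and 0.28 on its 2 probes. DDIT4, an inhibitor of mTOR signalling, was lower with DKK3 than with GFP (-0.18) and than in untransfected cells (-0.33).

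For the entry of pyruvate into the mitochondrion the values ran differently against untransfected cells. Of 12 genes, 8 were higher with DKK3 than with GFP (50.2% of all genes). But 3 were higher than in untransfected cells with DKK3 and 2 with GFP, against 47.1% and 47.3% of all genes. With GFP the count was 4 under median scaling (48.0% of all genes). DLAT, the acetyltransferase of pyruvate dehydrogenase, read 242 units on the DKK3 array, 209 on the GFP array and 303 in untransfected cells, so that GFP minus untransfected was -0.50. The phosphatase PDP1, which switches the complex on, stood at -0.40 and the subunit DLD at -0.29 in that comparison. DLAT, PDP1 and DLD lie in blocks 12 and 14, where bright spots had medians of -0.11 and -0.12, and with the surrounding spots subtracted they stood at -0.41, -0.38 and -0.22. The malic enzyme ME1, in the first row of block 23 like GPI, was at -0.72 between DKK3 and GFP, and -0.59 after that subtraction.

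The pentose phosphate pathway branches from glucose-6-phosphate. With either plasmid 5 of its 7 genes were higher than in untransfected cells (47.1% of all genes with DKK3 and 47.3% with GFP). With DKK3 that count was 2 under median scaling (44.8% of all genes). Between DKK3 and GFP, 3 of the 7 were higher with DKK3 (50.2% of all genes), with a median of -0.029. The lactonase PGLS, in block 22, stood at -0.54, with 566 units on the DKK3 array, 960.3 on the GFP array and 949.9 in untransfected cells. The epimerase RPE was the highest, at 0.22.

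**Figure D5:**
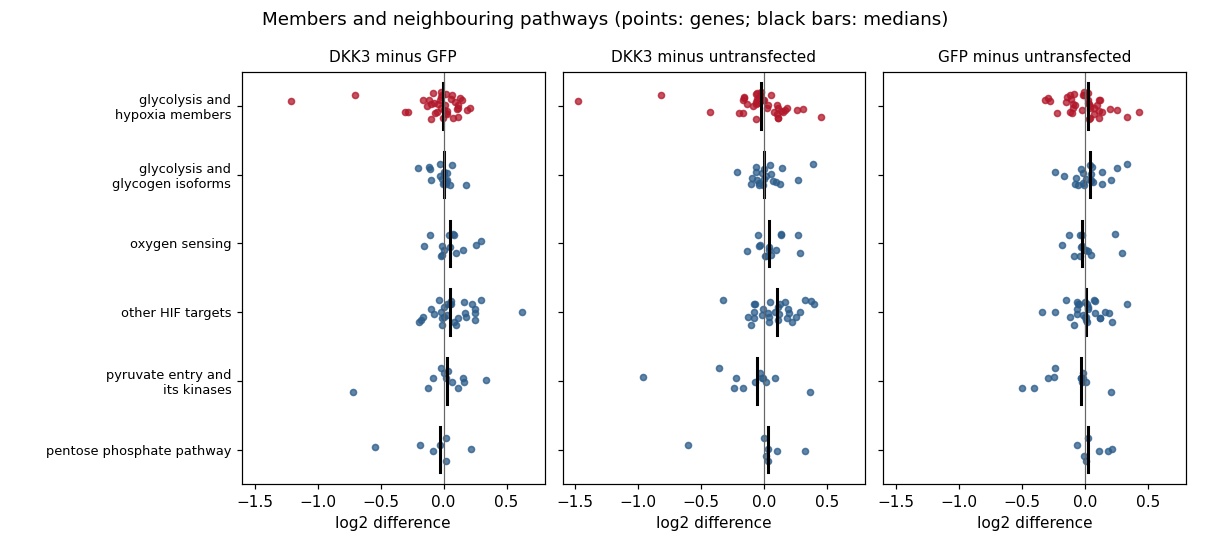
Log2 differences of the 38 members (red) and of the detected genes of 5 neighbouring pathways (blue) in the 3 comparisons, with black bars for the medians. All medians lie within 0.1 of 0. The points furthest left in the panels with DKK3, GBE1 and GPI among the members, ME1 in pyruvate entry and PGLS in the pentose phosphate pathway, are printed in blocks 22 and 23.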

How the data were processed

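RNA of 3 HSC-3 cultures was hybridised to 3 one-colour arrays after Cy5 labelling, per the labels' protocols. The authors deposited, for each array, the median intensity of each of 27456 spots, combined from scans at 3 gains with a least-squares fit, per the file headers. Software of the scanner: not given in the sources used here. The deposited series table, also intensity, was a straight line of that column scaled to a median of 25, as its values showed. A second column of the scanner files correlated at 0.994 to 0.998 with the spot intensity on the log2 scale and was not subtracted.

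Background was corrected with normexp (offset 50) over all spots in limma 3.58.1 (R 4.3.3). Control spots and 6 probes marked as faulty were removed, which left 24454, and the log2 step preceded quantile normalization. An added offset shrinks differences of dim spots. A symbol was given for 20231 of the kept probes, of which RefSeq (GRCh38.p14) held 17234 as current, 2898 were updated through synonyms and 99 stayed as annotated, and 4223 probes were unnamed. Detected probes of a gene were averaged for counts and medians and kept apart for named values. A difference was called at 2-fold for a probe detected on at least 1 of the 2 arrays, a rule of size. The rule was run on simulated arrays without any effect of array position, so it was not tried against such an effect. The robust SD is the scaled median absolute deviation over all detected genes. No interval can be given, since 1 array per group limits the precision.

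Named in full were members 2-fold apart, the 6 highest and the 6 lowest in each comparison, 10 HIF genes (CA9, SLC2A1, NDRG1, ADM, EGLN3, BNIP3, ANKRD37, PDK1, HIF1A and EPAS1) and genes whose probes disagreed by over 0.3. The members, lists and rules were chosen with earlier results of these data known. The results were recomputed under 12 other settings and 2 more chosen after seeing the data (without blocks 1 to 3, and with the surrounding spots' median subtracted).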

Additional observations from a re-analysis of the deposited data

How the results depend on the processing

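Each comparison's median, its count of members above 0 and its count of members 2-fold apart were recomputed under 14 alternatives, of which 116 values stayed within the tolerance (1 robust SD for a median, 1.5 times for a count) and 10 did not. In DKK3 minus GFP, median scaling left 9 of 38 members above 0, and the count of members 2-fold apart was 0 without blocks 22 to 24 and 0 with the surrounding spots subtracted. In DKK3 minus untransfected, the authors' deposited table, in which all genes had a median of -0.25, gave a median of -0.27, 4 members above 0 and 2 members 2-fold apart, GBE1 and GPI, and without blocks 22 to 24 the last count was 0. In GFP minus untransfected the deposited table, with all genes at -0.22, gave a median of -0.17 and 4 members above 0, and without blocks 1 to 3, 13 of 32 members were above 0. Relative to all genes these deposited medians were -0.022 and 0.050. The deposited table turned the balance of probes 2-fold apart against untransfected cells, with 114 higher and 378 lower for DKK3 (40 and 13 in the main setting) and 106 higher and 149 lower for GFP (41 and 5), and gave 72 higher and 146 lower between DKK3 and GFP (21 and 24). The cause of these shifts was not tested. The sign of a median, always within 0.05 of 0 in the main setting, turned in GFP minus untransfected in the deposited table and without blocks 1 to 3 (-0.022), in DKK3 minus untransfected with the surrounding spots subtracted (0.0051), and in DKK3 minus GFP without blocks 22 to 24 (0.0065) and with the brightest probe of a gene (0.0013). Single probes were recomputed under the 8 settings that can alter them, and GBE1 ran from -1.45 to -0.98 against GFP, GPI from -0.81 to -0.57, BNIP3 from -0.41 to -0.26, and the first HIF1A probe from 0.40 to 0.60 in GFP minus untransfected. No paired analysis was possible because each group is 1 array.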
